A study of Mus musculus with 8 samples.

Results

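The insulin-like growth factor (IGF) system in the mouse seminal vesicle was described here through 10 of the 17258 genes in the deposited table, chosen by gene symbol: the ligand gene Igf1, the receptor genes Igf1r, Igf2r and Insr, and the binding protein genes Igfbp2, Igfbp3, Igfbp4, Igfbp5, Igfbp6 and Igfbp7. Male outbred Swiss mice aged 8 to 12 weeks were injected intraperitoneally on each of 5 days, either with acrylamide at 25 mg/kg or with phosphate buffered saline as control, and each group held 4 mice. Seminal vesicles were taken 72 h after the last injection, freed of prostate and fluid, and their poly(A) RNA was sequenced. For every gene the table holds 1 acrylamide and 1 control value, in reads normalised by library size factors, so the spread between mice is unknown for genes with many reads. All 10 members are such genes: their values carry no SD, and no difference between the groups was tested for them.

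IGF1 is a secreted peptide that signals through the receptor tyrosine kinase encoded by Igf1r, and insulin acts through the related receptor encoded by Insr. The product of Igf2r binds IGF2 and takes it up for degradation, and it also carries mannose 6-phosphate tagged enzymes to lysosomes. The binding proteins hold IGFs in tissue and fluid and can block or prolong their action, and proteases that cut them release the ligand. Growth and secretion of the seminal vesicle depend on androgen, and IGF1 from its stroma is known as a growth signal for male accessory glands.

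Acrylamide differed most from control in Igfbp2, whose value was 2389 normalised reads in acrylamide tissue and 1186 in control tissue, a ratio of 2.01. Igfbp5 followed with a ratio of 1.37 and Igf1 with 1.28, and the receptors lay between 1.02 and 1.15. Igfbp6 alone had a lower value in acrylamide tissue. The gene pair with the highest ratios, Igfbp2 and Igfbp5, lies side by side on chromosome 1 (GRCm38, the build also called mm10). Igfbp2 spans 72824480 to 72852474 on the plus strand and Igfbp5 spans 72858065 to 72874865 on the minus strand, with 5590 bases and 0 annotated genes between them. Their promoter windows are shown as the start regions of this pair, which was picked by its ratios. Each runs from 250 bases before to 50 bases after a transcript start, from RefSeq on GRCm38.p6, at chr1:72824230-72824529 on the plus strand for Igfbp2 and chr1:72874816-72875115 on the minus strand for Igfbp5. Both read 5′ to 3′, and capitals mark matches to the motifs searched.
Igfbp2: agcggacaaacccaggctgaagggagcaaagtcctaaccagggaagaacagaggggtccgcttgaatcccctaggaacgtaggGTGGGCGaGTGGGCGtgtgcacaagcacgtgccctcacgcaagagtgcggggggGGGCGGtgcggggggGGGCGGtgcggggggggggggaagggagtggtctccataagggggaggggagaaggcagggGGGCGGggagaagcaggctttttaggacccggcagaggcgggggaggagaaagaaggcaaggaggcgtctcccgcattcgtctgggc
Igfbp5: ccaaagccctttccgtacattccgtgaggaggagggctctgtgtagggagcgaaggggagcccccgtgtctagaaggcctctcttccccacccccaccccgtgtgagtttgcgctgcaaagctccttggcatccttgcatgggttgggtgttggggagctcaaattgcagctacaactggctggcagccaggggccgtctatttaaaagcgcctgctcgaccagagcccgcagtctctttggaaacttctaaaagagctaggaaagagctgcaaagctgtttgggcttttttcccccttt

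The motifs were the GC box GGGCGG, the core GTGGGCG bound by factors of the EGR family, the TATA box TATAAA and the FOXO motif GTAAACA, each on both strands. The Igfbp2 window held 3 GC boxes and 2 EGR cores, with no overlap among them, and the Igfbp5 window held none of the motifs. A window was found for 9 members, and Igfbp2 had a second one, which made 10 windows. GC boxes were in 4 of them, TATA boxes in 2, EGR cores in 2 (both of Igfbp2) and FOXO motifs in 0. Over all 32851 windows of this length, 35.7% held a GC box, 13.6% a TATA box, 7.97% an EGR core and 3.65% a FOXO motif. The Igfbp2 window shown was 67% G and C, more than 85.6% of all windows, and these shares are not matched for that content. These are matches of letters, and binding was not measured.

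Igf1, the ligand gene, had 313.3 normalised reads in acrylamide tissue and 244.2 in control tissue, a log2 ratio of 0.36. Its value was the lowest of the 10 members in both groups. Igf2, which encodes the other IGF ligand, had few reads and is given by library further on. The insulin genes Ins1 and Ins2 were searched for by symbol and not found among the genes of the deposited table. The same holds for the binding protein gene Igfbp1.

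Igf1r, the receptor for IGF1, had 1933 normalised reads in acrylamide tissue and 1896 in control tissue, a log2 ratio of 0.028. Igf2r had 874.6 in acrylamide tissue and 760.6 in control tissue, a log2 ratio of 0.20. Insr had 510.5 in acrylamide tissue and 484.2 in control tissue, a log2 ratio of 0.076. The receptors summed to 3318 normalised reads in acrylamide tissue and 3141 in control tissue, a ratio of 1.06, the smallest ratio of the ligand, receptor and binding protein sums.

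Igfbp5, which binds IGFs and matrix, had the highest value of the members, with 3600 normalised reads in acrylamide tissue and 2632 in control tissue, a log2 ratio of 0.45. Igfbp2, which is known to bind IGF2 more tightly than IGF1, had a log2 ratio of 1.01. Igfbp7, a related protein with low affinity for IGFs that is known from vessels, had 1201 in acrylamide tissue and 1059 in control tissue, a log2 ratio of 0.18. These 3 genes are the most abundant binding protein genes by value as deposited.
Igfbp4, an inhibitory binding protein that the protease of Pappa cuts, had 525.3 normalised reads in acrylamide tissue and 488.0 in control tissue, a log2 ratio of 0.11. Igfbp3, the main carrier of IGFs in blood, had 434.2 in acrylamide tissue and 367.3 in control tissue, a log2 ratio of 0.24. Igfbp6, which prefers IGF2, had 362.7 in acrylamide tissue and 381.7 in control tissue, a log2 ratio of -0.074. Igfbp6 was thus the single member with a lower value in acrylamide tissue, though the sign is not stable: scaling both groups to the same total of all genes gave it a log2 ratio of 0.10.

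The 6 binding protein genes summed to 8511 normalised reads in acrylamide tissue and 6113 in control tissue, a ratio of 1.39, and to a ratio of 1.24 without Igfbp2. Igfbp2 made up 28.1% of these reads in acrylamide tissue and 19.4% in control tissue. Igfbp5 made up 42.3% in acrylamide tissue and 43.1% in control tissue, so Igfbp2 had the larger difference in share. These shares are not divided by length. With values divided by median transcript length, Igfbp2 made up 41.9% in acrylamide tissue and 29.0% in control tissue. Igfbp5 then made up 12.1% in acrylamide tissue and 12.3% in control tissue.

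**Figure D1:**
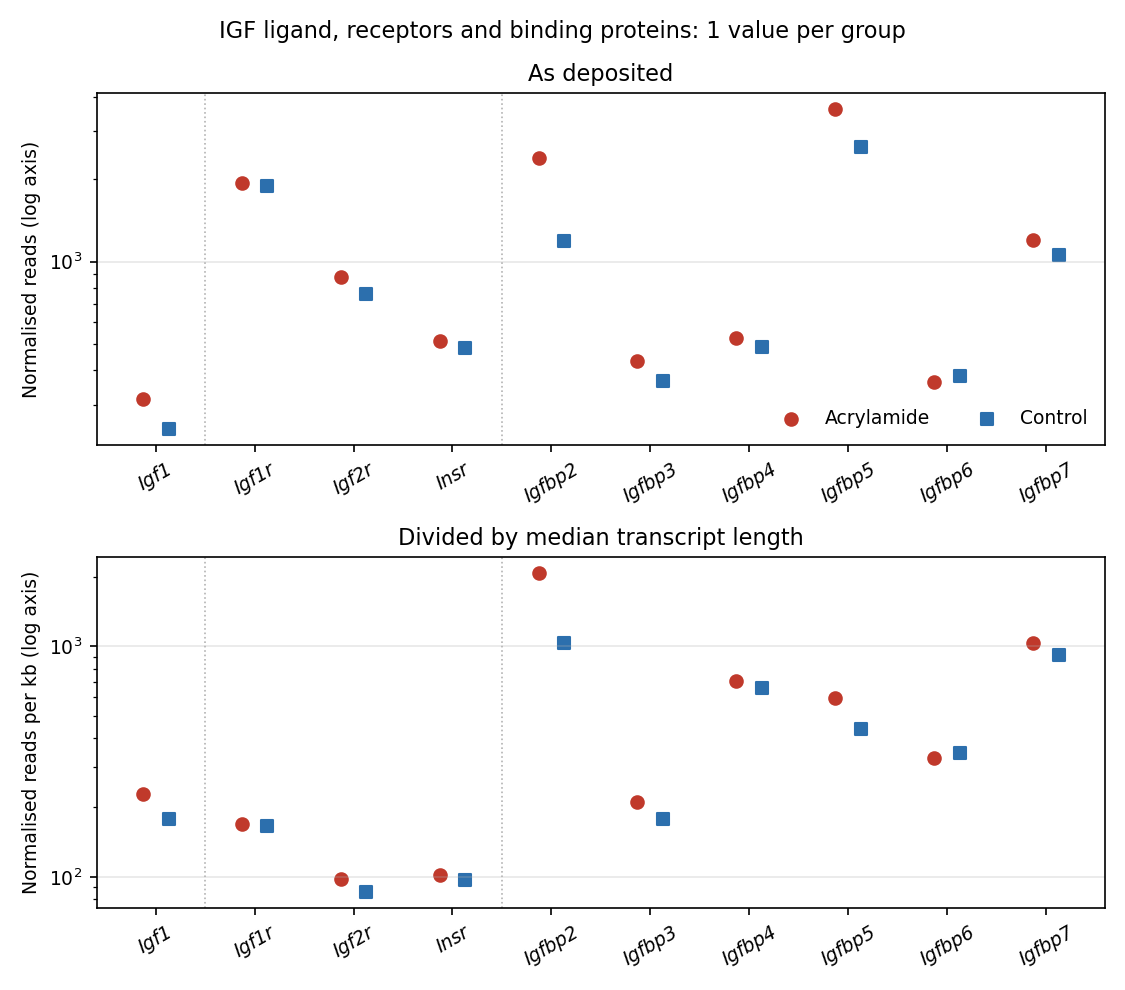
Normalised reads of the 10 members in acrylamide tissue (circles) and control tissue (squares), as deposited above and divided by median transcript length below, both on log axes, with dotted lines between the ligand, the receptors and the binding proteins. Each point is 1 value per group without error. The values of Igfbp2 lie furthest from each other, at 2389 normalised reads in acrylamide tissue and 1186 in control tissue.

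Levels of different genes can be compared only per length. Divided by the median length of the annotated transcripts, control values per kilobase were highest for Igfbp2 at 1032, followed by Igfbp7 at 914.2, Igfbp4 at 657.7, Igfbp5 at 438.2 and Igfbp6 at 343.3. Igf1 at 178.6 and Igfbp3 at 177.8 lay close together, as did Igf1r at 166.2. Insr at 96.6 and Igf2r at 85.6 were lowest. Without a spread, no neighbours in this order can be told apart, and the order depends on the transcripts chosen. Igf1 has 8 annotated transcripts, the median of which is 1368 bases and the longest 7052, and per kilobase of its longest transcript its control value of 34.6 was the lowest of the members. Igfbp2 and Igfbp7 stayed first and second with the longest transcript.

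At a fold of at least 1.5 or at most 0.67, with a mean of both groups of at least 1, 1 of the 10 members was past the threshold, Igfbp2. Of the 15345 genes at that mean, 11.8% were past it in either direction and 8.26% in the direction of acrylamide. Ratios spread more widely among low genes, and all 10 members had a mean of at least 100. Of the 8932 genes at this higher mean, 1.4% were past the threshold, and 1.03% were past it with the higher value in acrylamide tissue. At a looser limit of 0.8 for lower genes and its inverse for higher ones, 3 members were past the threshold (Igfbp2, Igfbp5 and Igf1), all higher in acrylamide tissue, beside 6.73% of the 8932 genes in either direction and 4.53% higher.

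Over the members, 9 of 10 ratios were above 1, beside 43.9% of the 8932 genes. The median log2 ratio of the members was 0.19, against -0.023 over those genes, whose 5th and 95th percentiles were -0.25 and 0.30. The log2 ratios of Igfbp2, Igfbp5 and Igf1 were above that range, and the other 7 members were within it. Of the 8932 genes, 99.6% had a lower ratio than Igfbp2, 97.9% a lower one than Igfbp5 and 96.3% a lower one than Igf1.

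**Figure D2:**
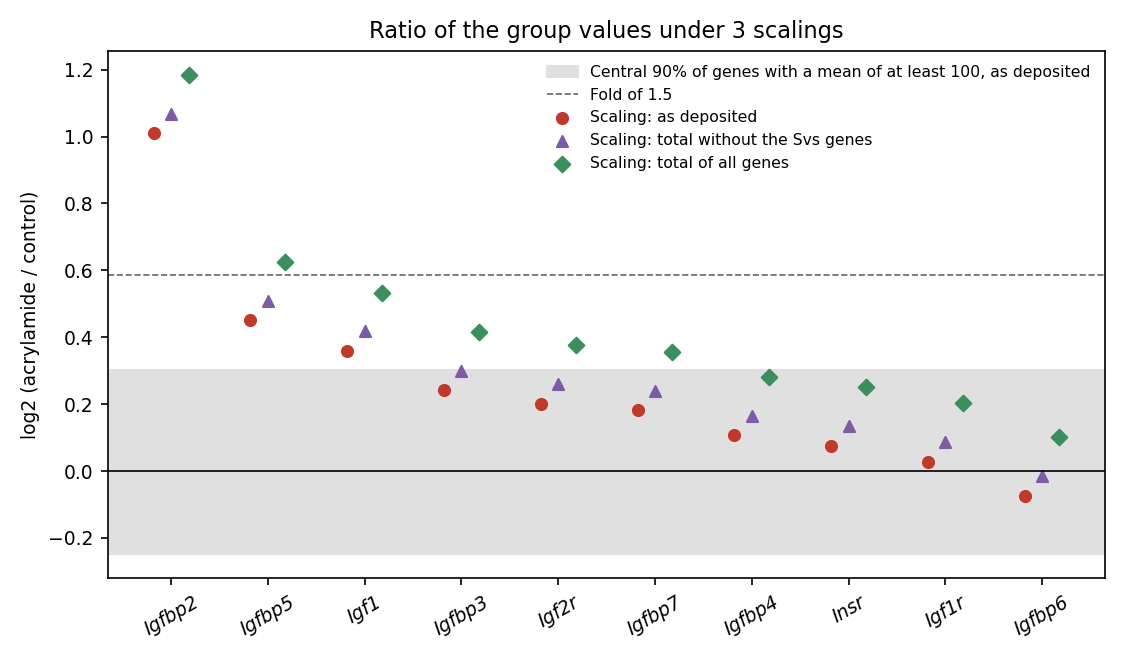
Acrylamide over control as a log2 ratio for each member (horizontal axis) under 3 scalings (symbols), with the central range of all genes with a mean of at least 100 as a grey band and the 1.5-fold limit dashed. Igfbp2 lies past the limit under each scaling drawn, Igfbp5 passes it only when the groups are set to the same total of all genes, and Igfbp6 changes sign there.

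Bulk tissue cannot show whether cells of a type were fewer or held less RNA. Among the markers of the labelled tissue, Svs2, Svs5 and Svs4, genes of seminal vesicle secretion, ranked 1, 2 and 3 in control tissue. The prostate genes Tgm4 and Pbsn ranked 23 and 52 there, and the 4 fat markers had control values of 1.08 to 4.36. Marker sums differed between the groups as well. The 6 smooth muscle markers all had ratios above 1, and their sum had a log2 ratio of 0.31. Sums of fibroblast (4 of 6 above 1), endothelial (4 of 4) and macrophage markers (4 of 4) had log2 ratios of 0.23, 0.32 and 0.25. The median log2 ratio of the fibroblast markers was 0.41, above that of Igf1 and below that of Igfbp5. The epithelial sum, made up mostly of Svs2, Svs5 and Svs4, had -0.28, with 1 of 7 above 1. The other epithelial markers Krt8, Krt18, Epcam and Cdh1 had log2 ratios of -0.21, -0.16, -0.16 and 0.097. The prostate sum had -0.14, with 2 of 4 above 1, and the sums of lymphocyte, nerve and fat markers, all low, had 0.17, -0.22 and -0.57. The log2 ratios of 3 members (Igfbp2, Igfbp5 and Igf1) were above that of the smooth muscle sum, by 0.70, 0.14 and 0.046, and 7 were at or below it. Single markers ran from 0.16 to 0.61 in smooth muscle and from -0.15 to 0.56 in fibroblasts. Those of endothelium ran from 0.23 to 0.54 and those of macrophages from 0.13 to 0.55. Igfbp5 and Igf1 lay within each of these ranges, and Igfbp2 lay above them. The part of these cell types in the values of the members was not tested.

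Some members overlap genes on the other strand in the annotation (GENCODE vM21): Igf1 with Igf1os, Igf2r with Airn, Insr with Gm16180 and the pseudogene Vmn2r-ps88, and Igfbp7 with Polr2b and Gm34648. The library protocol as described does not mark strand, so reads from these overlaps cannot be told apart.

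In the genes around the members, 71 further genes of 10 lists on IGF and insulin signalling had a mean of at least 1. Of these, 4 were past the fold higher in acrylamide tissue and 6 lower. Over all 15345 genes at that mean, 11.8% were past it in either direction and 8.26% higher. Among the 44 of the 71 genes with a mean of at least 100, 0 were past it higher and 2 lower, Stc2 and Bcl6. Over all 8932 genes at this higher mean, the shares were 1.4% in either direction and 1.03% higher. The median log2 ratio of the 71 genes was 0.058.

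Among the 8 proteases of the binding proteins and their inhibitors, 3 were past the fold higher and 2 lower. Of all genes with a mean of at least 1, 11.8% were past it in either direction. Those past it include the few-read genes Pappa and Adam28 (exact permutation p = 0.0571 and 0.571), given by library further on. Only Stc2 of those past it had a mean of at least 100. Pappa2, a protease of Igfbp5, had 62.1 normalised reads in acrylamide tissue and 40.3 in control tissue. Stc1 and Stc2 encode stanniocalcins, which inhibit these proteases, and they lay on opposite sides. Stc1 had 106.3 in acrylamide tissue and 70.6 in control tissue, and Stc2 had 82.1 in acrylamide tissue and 123.0 in control tissue, and their ratios of 1.51 and 0.668 lay close to the limits. Htra1, a serine protease that cuts binding proteins, had 159.0 in acrylamide tissue and 116.4 in control tissue, short of the threshold. Adam9, the most abundant gene of this list, had 980.2 in acrylamide tissue and 964.8 in control tissue.

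In the signalling chain below the receptors, few genes were past the fold. The share over all genes was 11.8% at a mean of at least 1 and 1.4% at a mean of at least 100. Many genes of this chain have the higher mean, and for them the lower share is the closer one. Of the 10 genes of PI3K and AKT, 0 were past the fold, and their log2 ratios ran between -0.11 and 0.42. Akt1 had 2417 normalised reads in acrylamide tissue and 2415 in control tissue, and Pik3r1, a regulatory subunit of PI3K, had 1463 in acrylamide tissue and 1538 in control tissue. Of the 12 adaptor genes 1 was past the fold, the few-read gene Irs2, while Crk had 1092 in acrylamide tissue and 1052 in control tissue and Shc1 had 1038 in acrylamide tissue and 979.2 in control tissue. The 14 inhibitors of the signal had 0 past it, and the phosphatase genes Ptprf and Inppl1 had ratios of 1.09 and 1.08. In the growth hormone axis 0 of 7 were past it, and Prlr and Stat5a had ratios of 1.03 and 0.99. Among the 13 FOXO factors and genes they induce, Bcl6, a repressor, had 144.7 in acrylamide tissue and 247.5 in control tissue, and Trim63, a ubiquitin ligase of muscle, was also past the fold lower. Cdkn1b and Foxo3 had ratios of 1.04 and 1.02. Igf2bp2, an RNA binding protein named for Igf2 mRNA, had 34.4 in acrylamide tissue and 42.7 in control tissue.

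**Figure D3:**
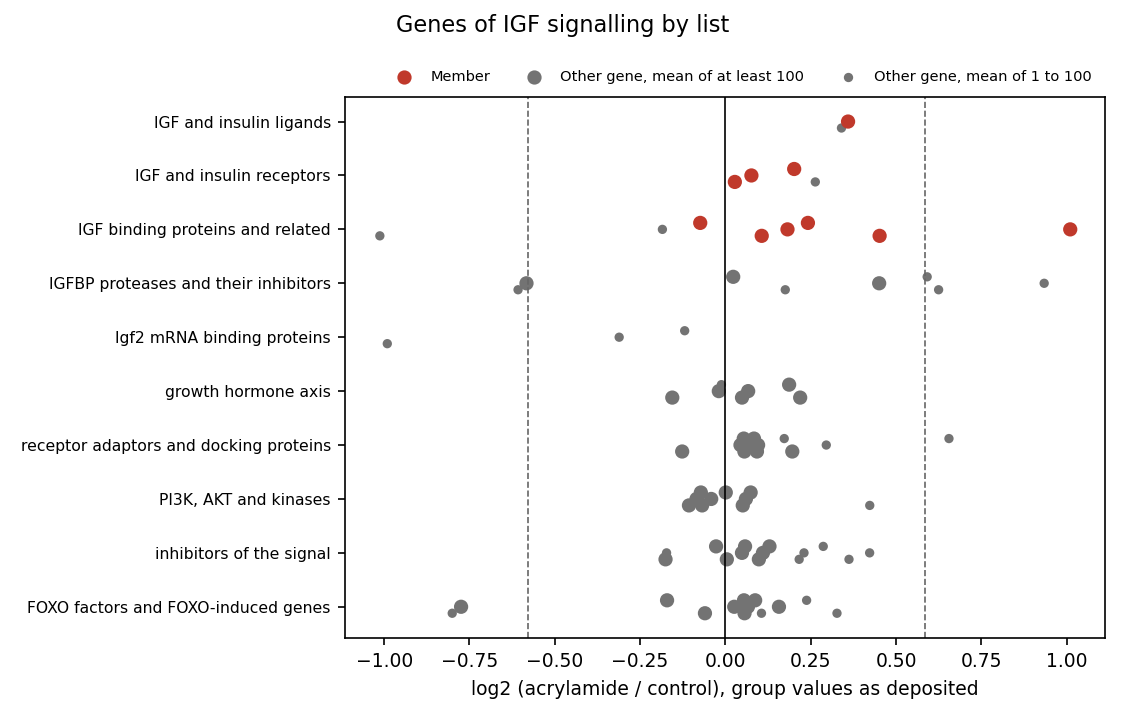
Acrylamide over control as a log2 ratio for each gene whose mean reached 1 in the 10 lists of IGF and insulin signalling (rows), members in red and other genes in grey, small points having a mean of 1 to 100. Dashed lines mark folds of 1.5 and 0.67, and the grey points past them are mostly small.

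For genes with few reads the values of single libraries were recovered from the digits of the table, and this was done for 16 of 16 listed genes tried. None of these genes is a member. Libraries carry the order of their size factors within a group and cannot be matched to mice, so values are listed without a link to replicate numbers. Igf2 had 26.0, 42.3, 17.5 and 37.0 normalised reads in acrylamide libraries and 32.3, 25.9, 23.8 and 14.7 in control libraries. The groups overlapped (exact two-sided permutation p = 0.429).

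Pappa, the protease that cuts Igfbp4, had 13.5, 7.35, 15.6 and 7.80 in acrylamide libraries and 5.88, 6.22, 7.59 and 3.39 in control libraries. The groups overlapped in 1 pair of libraries, at 7.35 in acrylamide and 7.59 in control (exact permutation p = 0.0571). Igf2bp1, which binds Igf2 mRNA, had 8.98, 13.8, 11.7 and 4.87 in acrylamide libraries and 20.6, 9.32, 29.3 and 19.2 in control libraries, and the groups overlapped (exact permutation p = 0.0857). Trim63 had 0.898, 1.84, 1.95 and 3.90 in acrylamide libraries and 2.94, 3.11, 4.34 and 4.51 in control libraries, with overlap (exact permutation p = 0.0857).

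Irs2, a docking protein of both receptors, averaged 7.96 ± 3.06 normalised reads in acrylamide libraries and 5.10 ± 2.21 in control libraries (SD, n = 4 each, exact permutation p = 0.257). Adam28 averaged 10.8 ± 3.41 in acrylamide libraries and 16.4 ± 9.17 in control libraries (exact permutation p = 0.571, n = 4 each). Igfals, which encodes the acid labile subunit that binds IGF complexes in blood, averaged 1.43 ± 1.70 in acrylamide libraries and 2.85 ± 2.00 in control libraries (exact permutation p = 0.371, n = 4 each). Of the 16 genes 0 had groups without overlap or an exact permutation p under 0.05, where 0.0286 is the smallest p that 4 against 4 libraries can give. Leaving out 1 library brought Pappa (without acrylamide library 2), Trim63 (without acrylamide library 4) and Adam28 (without control library 4) to an exact permutation p of 0.0286. Each library left out there was one that overlapped the other group, so leaving it out forced the groups apart. Igf2bp1 without control library 2 and Irs2 without acrylamide library 4 also lost their overlap, at an exact permutation p of 0.0571 and 0.0857.

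Over all 3336 recovered genes, 4.17% had groups without overlap, 101 of them higher in acrylamide libraries and 38 lower. The smallest p of all these genes adjusted by Benjamini-Hochberg was 0.686, so 0 passed a threshold of 0.05 after adjustment, beside 139 at an unadjusted exact permutation p under 0.05. The smallest possible exact permutation p is 0.0286, so an adjusted p under 0.05 would need most of these genes at that floor. The adjustment therefore could not single out a few genes, and no conclusion is drawn from it. Summed over the recovered genes, acrylamide libraries held 38434 to 46967 normalised reads and control libraries 35247 to 36883, and acrylamide library 1 was the highest. These sums do not overlap between the groups, and their part in the counts by direction was not tested.

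**Figure D4:**
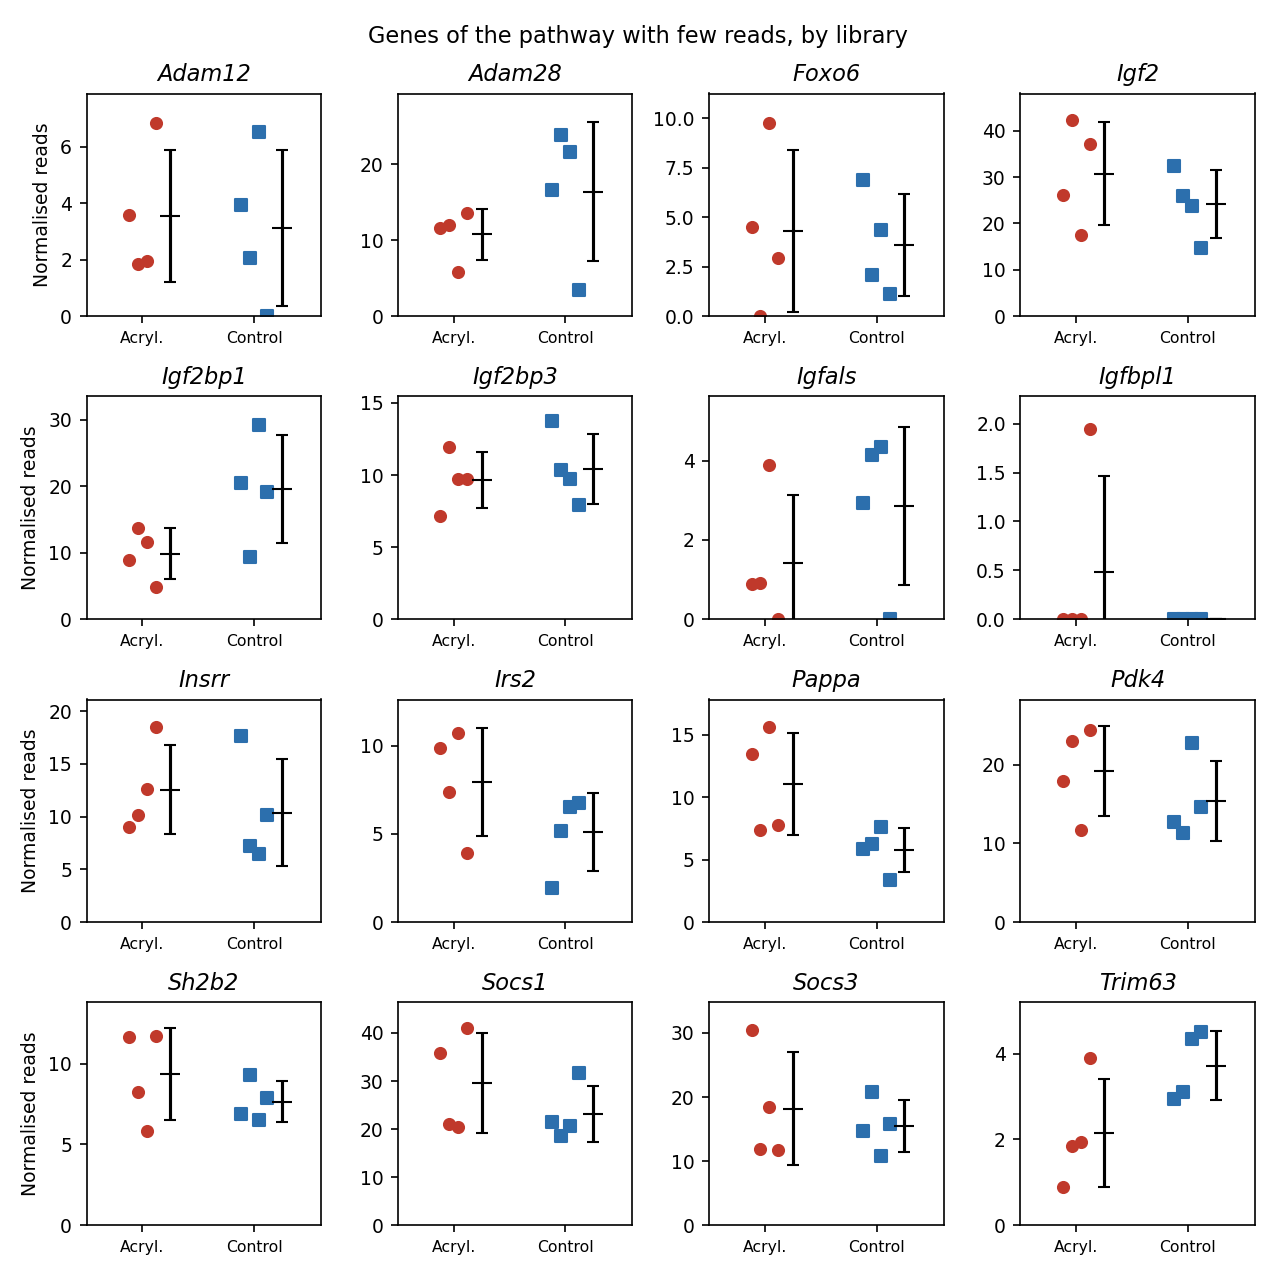
Normalised reads (vertical axis, starting at 0) of the 16 listed genes with recovered reads, for 4 acrylamide libraries (circles, left) and 4 control libraries (squares, right), with the mean and SD of each group as a bar. No panel has groups without overlap; in Pappa, Igf2bp1, Adam28, Trim63 and Irs2 leaving out a single library would end the overlap.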

How the data were processed

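The authors sequenced poly(A) RNA of 4 acrylamide and 4 control seminal vesicles, removed poor reads (SOAPnuke), aligned the remainder to mm10 (HISAT2), added predicted genes (StringTie, Cuffcompare) and counted by RSEM. The signal values, as deposited by the authors, are reads divided by DESeq2 size factors and summarised to 1 value per gene and group, not divided by length. The authors' fold changes, p-values and adjusted p-values stand beside them and were not used. Depth per library is not given in the table, whose values sum to 27433231 for acrylamide and 30956651 for control. Those are sums of normalised group values rather than counts of reads, and they do not give the spread between mice.

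Ratios were taken between the group values. Lengths were known for 16485 genes (95.5%). In 1724 of 1724 genes with a mean under 0.8, the mean of both group values was whole reads over size factors (tolerance 1e-11). Size factors of the 8 libraries followed from genes with 1 read, and whole reads were searched for 3394 genes whose normalised reads summed to between 15 and 250 over the libraries and found, as a unique solution at a relative tolerance of 1.5e-14, for 3336 (98.3%). Igfbpl1, a listed gene below that range, was searched in the same way and left out of the adjustment. In the 3321 of these with reads in both groups, the ratio of the group values differed from the ratio of the library means by a median of 0.0050 on the log2 scale. On simulated data 60 of 60 genes with a sum of 15 to 150 and 51 of 60 with 150 to 250 came out right, the other 9 gave no unique solution and 0 were wrong. The test on these libraries was an exact two-sided permutation over 70 divisions on log2(normalised reads + 1), with Benjamini-Hochberg adjustment over all recovered genes in place of the listed genes alone. P-values measure only the spread between libraries.

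Genes named are the members, and of each list those past the fold and the 2 of highest mean; Igf1os, Airn and other overlapping genes the markers, and Adam12, Foxo6, Igf2bp3, Socs3 and Igfbpl1 in the closing section are named outside this rule. Members and lists were chosen with earlier results of these data known. The sum limit (a higher one was tried and gave several solutions for some genes), the tolerance, the mean of at least 100 and the promoter motifs were chosen after values were seen. Alternatives were other scalings, folds, minimum means, pseudocounts, lengths and leaving out each library. Python 3.11.15, numpy 2.4.6, pandas 2.3.3, scipy 1.17.1, statsmodels 0.14.6 and matplotlib 3.10.9 were used.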

Additional observations from a re-analysis of the deposited data

Results flagged for a closer look

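Igfbpl1, a gene related to the binding proteins, had 1.95 normalised reads in a single acrylamide library and 0 in the other acrylamide libraries and in every control library. The lone library stood apart from the rest of its group by the whole range of the group, which stands for 2 reads. Such a gap follows whenever 1 library alone holds reads, so no chance rate is given for it. The deposited group values of this gene were 0.348 in acrylamide and 0.140 in control tissue, while the means of the recovered libraries were 0.487 in acrylamide and 0 in control, so the deposited values are not library means here.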

How the results depend on the processing

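The single member past the fold became 2 when both groups were set to the same total of all genes (Igfbp5 joined Igfbp2) and 3 at the looser limit of 0.8 and its inverse. It stayed 1 under the other scalings and minimum means. The total of all genes shifted every log2 ratio by 0.17, which raised the median of the members to 0.37 and that of all genes with a mean of at least 1 to 0.18. Without the 7 Svs genes in the total, the median of the members was 0.25. The count of pathway genes past the fold, members included, was 11 and became 19 at that looser limit and 7 at a mean of at least 10. The order of the members per length moved in 17 of 20 comparisons with the longest transcript or no length.

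In the genes with few reads, 0 of 16 had an exact permutation p under 0.05, and leaving out 1 library gave 0 to 1. The 1 was Pappa without acrylamide library 2, Trim63 without acrylamide library 4 and Adam28 without control library 4, each at an exact permutation p of 0.0286, the smallest that 3 against 4 can give. Each library left out there was one that overlapped the other group. Without each library in turn, 11 of the 16 kept their direction. Igfbpl1 had a difference of 0 without acrylamide library 4, Adam12 ranged between -0.22 and 0.75, Foxo6 between -0.55 and 0.59, Igf2bp3 between -0.21 and 0.032, and Socs3 between -0.13 and 0.31 on the log2 scale. Foxo6 had a log2 difference of 0.052 at a pseudocount of 5 and -0.061 at 1. No paired analysis was possible because the values of libraries cannot be matched to replicate numbers. The causes of these shifts were not tested.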
